A study of Mus musculus with 6 samples.

Results

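The odorant receptor genes numbered Olfr828 to Olfr986 are described here in olfactory cells that lack the zinc-finger transcription factor Fezf1. Members were all genes whose symbol is Olfr followed by a number in the range of Olfr828 to Olfr986 and that have a probe set with 1 symbol. This gave 106 genes of the 19938 tested, or 106 of the 1015 odorant receptors measured, and all 106 lie on chromosome 9 in the RefSeq table of GRCm38.p6. No filter on low values was used, so all 106 were tested. Another 5 genes of this number range in that table, Olfr844, Olfr884, Olfr885, Olfr951 and Olfr955, had no probe set with 1 symbol and were not analysed as members.

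The mutant cells were homozygous for a targeted Fezf1 allele (Fezf1-/-, 3 arrays) and the control cells carried 1 copy of it (Fezf1+/-, 3 arrays). The allele expresses EGFP from the Fezf1 promoter, so both groups carry EGFP, and the controls are heterozygous rather than wild type. Cells were sorted by FACS from the main olfactory epithelium of C57BL/6 embryos at E18.5, and their total RNA was hybridised to Affymetrix Gene ST arrays. Nothing in the labels ties a replicate to its own embryo, litter or pool, so every p-value rests on a spread between samples that may be technical.

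Odorant receptors are G protein-coupled receptors through which olfactory sensory neurons detect odours. A mature neuron expresses 1 receptor gene out of the whole family, from 1 allele. The genes stand in clusters, most have an intronless coding region behind short noncoding exons, and their promoters tend to hold sites for Ebf (O/E) factors and for homeodomain factors such as Lhx2. The chromosome 9 receptors belong to class II, the large class of tetrapod odorant receptors. In sorted cells, fewer neurons that use a receptor and less RNA per neuron cannot be told apart.

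Fezf1 itself averaged 5.92 ± 0.36 log2 units on the Fezf1-/- arrays and 11.23 ± 0.09 on the Fezf1+/- arrays (SD, n = 3 each). Omp, the marker of mature olfactory neurons, stood at 9.09, 10.77 and 10.84 on the Fezf1-/- arrays and between 11.82 and 12.12 on the Fezf1+/- arrays, well above the median probe set in both groups. Fezf1-/- replicate 1 stood apart, correlating across genes with the other arrays at 0.905 to 0.935, against 0.975 to 0.995 among the other 5. On it, all 8 measured mesenchyme and bone markers, all 8 myeloid and all 5 ensheathing glia markers were higher than on any other array, and 14 of 16 mature neuron markers were lower than on any other. The summed signal of the mesenchyme and bone list, as log2, was 14.02 on that array, 10.76 and 10.10 on Fezf1-/- replicates 2 and 3, and 9.88 to 11.19 on the Fezf1+/- arrays. That of the mature neuron list was 12.1, 13.7 and 13.7 on the Fezf1-/- arrays and 14.1 to 14.6 on the Fezf1+/- arrays. As a median over genes, the mature neuron list differed by -1.25 with all 6 arrays (0 of 16 called) and by -0.89 without Fezf1-/- replicate 1 (6 of 16 fell), while the mesenchyme and bone list differed by 1.25 and -0.06. Other lists also moved in the 5 arrays without Fezf1-/- replicate 1. There the immature neuron list had a median of 0.33 with 3 of 10 markers called higher, the vomeronasal list one of 0.38 with 1 of 5 called higher, and the sustentacular list one of -0.58 with 1 of 7 called lower. With all 6 arrays their medians were -0.11, 0.39 and -0.24, and 1 vomeronasal marker, Gnai2, was called (difference 1.17, limma adjusted p = 0.0201). The part of these cells in the receptor results was not tested, and the results below are given with all 6 arrays and without Fezf1-/- replicate 1.

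Most chromosome 9 receptors had negative differences between Fezf1-/- and Fezf1+/- cells, but few of them exceeded the spread between arrays. With all 6 arrays, 2 of the 106 receptors, Olfr868 and Olfr921, fell at an adjusted p under 0.05 (limma, Benjamini-Hochberg over all genes) and 0 rose. That is 1.89% of the receptors, where 0.456% of all genes tested were called lower and 0.0953% higher. Among the 909 odorant receptors outside this number range, 76 fell, or 8.36%. With an unadjusted p below 0.05 there were 19 lower and 0 higher, or 17.9% lower, against 430 of the other receptors, or 47.3%, and 5.25% of all genes. On the higher side of that threshold stood 4.23% of all genes. The median difference, Fezf1-/- minus Fezf1+/-, was -0.56 over the 106 receptors, -0.75 over the other receptors and 0.02 over all genes. Whether the chromosome 9 receptors differ from the other receptors as a group was not tested.

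The direction of these differences depended on the scale against which they were read. On values as deposited, and after quantile normalization or centring of each array on its median, the same 2 receptors fell and 0 rose. When each array was centred on its mature neuron markers, 2 receptors were called lower and 42 higher, and the median of the 106 was 0.80. Centring on the other odorant receptors gave 3 lower, 20 higher and a median of 0.43. In the same order, 18430 and 14567 of all 19938 genes were called in either direction, so most genes moved with the scale. These centrings raised the median of all genes to 1.38 and 1.01, and relative to the median of all genes the chromosome 9 median was -0.58 under every centring. By their median the receptors were thus on the lower side of all genes and on the higher side of the mature neuron markers and of the other receptors. All differences that follow are on the scale of the deposited values.

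The single arrays show how much of this median rests on Fezf1-/- replicate 1. The median signal of the 106 receptors was 4.73, 5.90 and 6.08 log2 units on Fezf1-/- replicates 1, 2 and 3, against 6.14, 6.17 and 6.69 on the Fezf1+/- arrays. For 99 of the 106 receptors, Fezf1-/- replicate 1 gave the lowest value of all 6 arrays. The median of the other odorant receptors was 4.74, 5.61 and 5.75 on the Fezf1-/- arrays and 6.19, 6.21 and 6.66 on the Fezf1+/- arrays. Both sets thus had nearly the same median on every Fezf1+/- array and on Fezf1-/- replicate 1, while on Fezf1-/- replicates 2 and 3 the chromosome 9 median was the higher one. Fezf1+/- replicate 3 was the highest of its group for 92 of the 106 receptors.

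**Figure D1:**
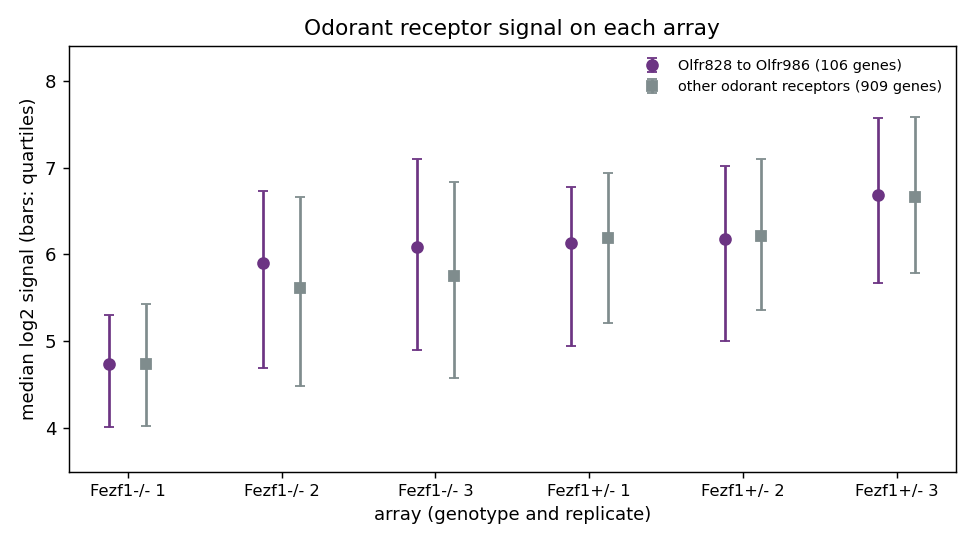
Median log2 signal on each array (x axis: genotype and replicate) for the 106 receptors Olfr828 to Olfr986 (circles) and the 909 other odorant receptors (squares), with bars from the lower to the upper quartile over genes. On Fezf1-/- replicates 2 and 3 the chromosome 9 medians are 5.90 and 6.08, above the 5.61 and 5.75 of the other receptors, and on the other 4 arrays the medians of both sets nearly coincide.

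Once Fezf1-/- replicate 1 was left out, the differences of the chromosome 9 receptors lay closer to 0 but mostly stayed negative. Their median was -0.15, with 73 negative and 33 positive differences and quartiles at -0.43 and 0.05, whereas the other receptors had a median of -0.45 and quartiles at -1.07 and 0.02. Over all genes the median was 0.02, with quartiles at -0.11 and 0.14. Of all genes 55.3% had a positive difference, against 31.1% of the chromosome 9 receptors. For 82 of the 106, or 77.4%, the difference was smaller than 0.5 log2 units in either direction, against 46% of the other receptors and 92.9% of all genes. In these 5 arrays 7 receptors fell, or 6.6%, and 0 rose, against 181 fallen (19.9%) and 5 risen among the other 909. Of all genes, 1.67% were called lower and 0.993% higher. With an unadjusted p below 0.05, 18 of the 106 stood lower (17%) and 0 higher in these 5 arrays, against 8.68% and 7.63% of all genes. The 95% interval of the difference lay entirely above -1, that is, short of a halving, for 72 of the 106 receptors (67.9%) and for 449 of the other 909 (49.4%). These counts include receptors near background, where a halving could hardly show. Of the 106 receptors, 8 stood below the lower quartile of all probe sets on all 6 arrays.

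The groups overlapped for most members. In 22 of the 106 receptors all 3 Fezf1-/- values lay below all 3 Fezf1+/- values, or 20.8%, where 8.77% of all genes did. In 0 receptors did all 3 Fezf1-/- values lie above the Fezf1+/- values, where 9.72% of all genes did. Fezf1-/- replicates 2 and 3 alone were below all Fezf1+/- arrays in 22 receptors, or 20.8% against 16.3% of all genes. They were above them in 2, Olfr915 and Olfr952, or 1.89% against 19.9% of all genes, and both were picked out only once their values were known. Olfr952 stood at 3.16 to 3.52 over the 6 arrays, below the lower quartile of all probe sets on each, so little can be read from it. Olfr915 stood at 5.87, 7.76 and 7.81 on the Fezf1-/- arrays and at 6.68, 7.18 and 7.76 on the Fezf1+/- arrays. Its difference without Fezf1-/- replicate 1 was 0.58 (SE 0.28, limma adjusted p = 0.372).

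Olfr910 and Olfr921 had the lowest differences of the set. Both belong to MOR165, a family of receptors of similar sequence under the MOR nomenclature, as the RefSeq synonyms give it. Olfr921 stood at 3.61, 4.44 and 4.37 log2 units on the Fezf1-/- arrays, against 6.15, 6.62 and 6.79 on the Fezf1+/- arrays. The groups lay well apart, and Olfr921 fell by 2.38 (SE 0.28, limma adjusted p = 0.0288, n = 3 each), while without Fezf1-/- replicate 1 it fell by 2.11 (SE 0.19, adjusted p = 0.00321). Olfr910 stood at 4.12, 4.79 and 4.12 on the Fezf1-/- arrays, against 6.11, 6.76 and 7.59 on the Fezf1+/- arrays. These groups did not overlap either, but the Fezf1+/- arrays were spread over more than 1 log2 unit, and the difference of -2.48 (SE 0.40, limma adjusted p = 0.0861) missed the threshold with all 6 arrays. In the 5 arrays other than Fezf1-/- replicate 1, Olfr910 fell by 2.37 (SE 0.42, adjusted p = 0.0382). The Fezf1-/- values of both lay near the lower quartile of all probe sets, which was 4.30 to 4.44 over the arrays, so the background estimate sets part of their size and no fold is given.

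The other MOR165 receptors were examined after these values had been seen, so what follows is a description of the family. It has 8 measured members. Olfr907, Olfr908, Olfr910, Olfr912, Olfr913 and Olfr914 follow each other along the chromosome among the 106 receptors of the set, and Olfr920 and Olfr921 stand a few receptors further on. On the deposited scale all 8 had negative differences, which became 3 of 8 when arrays were centred on mature neuron markers. On the deposited scale 6 of the 8 (75%) stood lower at an unadjusted p under 0.05, against 13 of the 98 members of other families. That share was 47.3% among the 909 odorant receptors outside the set and 5.25% among all genes. The family median was -1.15 with all 6 arrays and -1.003 without Fezf1-/- replicate 1, where the members of other families had medians of -0.54 and -0.12. Centred on mature neuron markers the family median was 0.21, and centred on the other receptors it was -0.16, with all 6 arrays.

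Olfr914 stood at 4.70, 4.73 and 5.09 on the Fezf1-/- arrays, against 5.60, 6.52 and 6.72 on the Fezf1+/- arrays. Its difference was -1.44 (SE 0.31, limma adjusted p = 0.187), and it stood at -1.37 without Fezf1-/- replicate 1 (adjusted p = 0.0945). Olfr912 stood at 3.94, 4.21 and 4.04 on the Fezf1-/- arrays, against 4.78, 5.22 and 6.06 on the Fezf1+/- arrays, a difference of -1.29 (SE 0.32, adjusted p = 0.258). The Fezf1-/- values of Olfr912 all lay below the lower quartile of all probe sets, near background, so the background estimate sets part of its difference. In both Olfr914 and Olfr912 every Fezf1-/- array lay below every Fezf1+/- array, yet neither passed the threshold over all genes in either fit. Among the alternative fits, Olfr914 was called with array weights, and it was the only member called when Fezf1+/- replicate 1 was left out. Olfr907 had a difference of -1.01 (SE 0.31, adjusted p = 0.375). Olfr908, annotated as a transcribed pseudogene, stood below 4 log2 units on all 6 arrays, at the low end of the range, with a difference of -0.41 (SE 0.13, adjusted p = 0.386).

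Not every member of the family took that course. Olfr920 stood at 4.54, 5.71 and 6.10 on the Fezf1-/- arrays, against 5.54, 5.97 and 6.54 on the Fezf1+/- arrays, so the groups overlapped. Its difference was -0.57 with all 6 arrays and -0.11 without Fezf1-/- replicate 1 (SE 0.28, limma adjusted p = 0.888). Olfr913, a receptor reported to respond to eugenol, the odorant of cloves, stood at 3.75, 3.73 and 4.15 on the Fezf1-/- arrays, against 4.16, 4.03 and 4.13 on the Fezf1+/- arrays, below the lower quartile in both groups (difference -0.23, adjusted p = 0.663). The receptors between Olfr914 and Olfr920, which belong to other families, had differences from -0.80 to -0.05 with all 6 arrays, Olfr917 being the lowest and Olfr916 the highest of them. The plot of differences by gene order shows this local arrangement.

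Olfr910, Olfr912 and Olfr921 are the MOR165 receptors with differences below -1 and a RefSeq gene model longer than 1500 bases. The length alone does not show on which side of the coding region a gene model extends. The sequences before the gene starts are shown for these 3 receptors and for 2 others. The others are Olfr920, a MOR165 receptor near the control level without Fezf1-/- replicate 1, and Olfr868, the called receptor of another family. Sequences are given in the order Olfr910, Olfr912, Olfr921, Olfr920 and Olfr868. Each is the run of 250 bases before the RefSeq gene start on GRCm38.p6, plus strand, 5′ to 3′. The windows are chr9:38537632-38537881, chr9:38579994-38580243, chr9:38772838-38773087, chr9:38752546-38752795 and chr9:20098376-20098625, and all are upstream of the annotated first exon. Capitals mark matches to TCCCNNNNGA, a relaxed form of the Ebf (O/E) site, to TAATTA, the homeodomain core, or to TATAAA, searched on both strands. No match shown overlaps another.
Olfr910: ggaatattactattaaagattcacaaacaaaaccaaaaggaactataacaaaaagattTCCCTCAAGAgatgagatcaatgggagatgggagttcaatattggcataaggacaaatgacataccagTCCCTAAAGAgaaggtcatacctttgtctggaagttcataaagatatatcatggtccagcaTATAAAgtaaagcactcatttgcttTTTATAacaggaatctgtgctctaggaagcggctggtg
Olfr912: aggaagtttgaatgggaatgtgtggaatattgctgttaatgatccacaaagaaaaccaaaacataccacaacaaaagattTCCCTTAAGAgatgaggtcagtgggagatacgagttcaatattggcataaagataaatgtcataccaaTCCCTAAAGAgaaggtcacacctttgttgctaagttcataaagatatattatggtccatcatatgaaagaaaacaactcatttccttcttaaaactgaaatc
Olfr921: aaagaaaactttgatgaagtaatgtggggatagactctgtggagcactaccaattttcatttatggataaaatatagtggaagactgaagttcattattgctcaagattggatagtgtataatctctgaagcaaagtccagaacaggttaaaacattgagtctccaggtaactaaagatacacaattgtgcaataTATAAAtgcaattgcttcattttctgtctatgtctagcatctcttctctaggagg
Olfr920: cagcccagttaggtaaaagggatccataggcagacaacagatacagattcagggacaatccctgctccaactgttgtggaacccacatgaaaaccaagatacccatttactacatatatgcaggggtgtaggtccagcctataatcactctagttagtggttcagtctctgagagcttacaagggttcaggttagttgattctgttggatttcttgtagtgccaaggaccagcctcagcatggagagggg
Olfr868: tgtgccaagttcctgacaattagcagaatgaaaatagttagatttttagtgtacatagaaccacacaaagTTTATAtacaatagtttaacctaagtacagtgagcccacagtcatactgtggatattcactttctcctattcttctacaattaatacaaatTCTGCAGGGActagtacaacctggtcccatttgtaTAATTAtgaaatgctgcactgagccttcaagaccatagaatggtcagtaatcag

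Pairs were formed among the 15 members with such gene models and a window. Olfr910 and Olfr912, neighbours on the chromosome, had the most similar windows of all 105 pairs. They had 70.5% identical positions in a global alignment, against a median of 50.7% over the pairs. Olfr869 and Olfr872, neither of them called, followed at 69.1% with a longer shared run of bases, 23 against 19. The next pair was Olfr912 and Olfr913, at 58.3%. Olfr913 is a further MOR165 receptor with such a gene model that was not called, and its window is not shown. Olfr910 and Olfr912 each hold 2 matches to TCCCNNNNGA, TCCCTCAAGA and TCCCTAAAGA in Olfr910 and TCCCTTAAGA and TCCCTAAAGA in Olfr912. In Olfr868 that motif matched on the opposite strand, 89 bases before the gene start, and a TAATTA stood 54 bases before it. TATAAA matched in Olfr868 on the opposite strand, 180 bases before the gene start. In Olfr910 TATAAA matched 63 bases before the gene start and, on the opposite strand, 38 bases before it. Olfr921 held a TATAAA 55 bases before the gene start and no match to the other motifs, and the window of Olfr920 held none of the 3. A match to TCCCNNNNGA was found in 12.6% of all 32851 RefSeq windows of this length, in 12 of 93 windows of the chromosome 9 receptors (12.9%) and in 9.52% of the windows of other odorant receptors. Among the 16 windows of chromosome 9 receptors with gene models over 1500 bases it was in 5 (31.2%), TAATTA in 4 (25%) and TATAAA in 7 (43.8%). TAATTA was in 4.84% of all windows and 23.7% of those of the chromosome 9 receptors, and in 17.5% of those of other odorant receptors. The corresponding shares for TATAAA were 12.4%, 44.1% and 38.9%. For most receptors the gene model starts at or near the coding region, so many of these windows are not promoters, and a match describes letters, not a bound site.

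**Figure D2:**
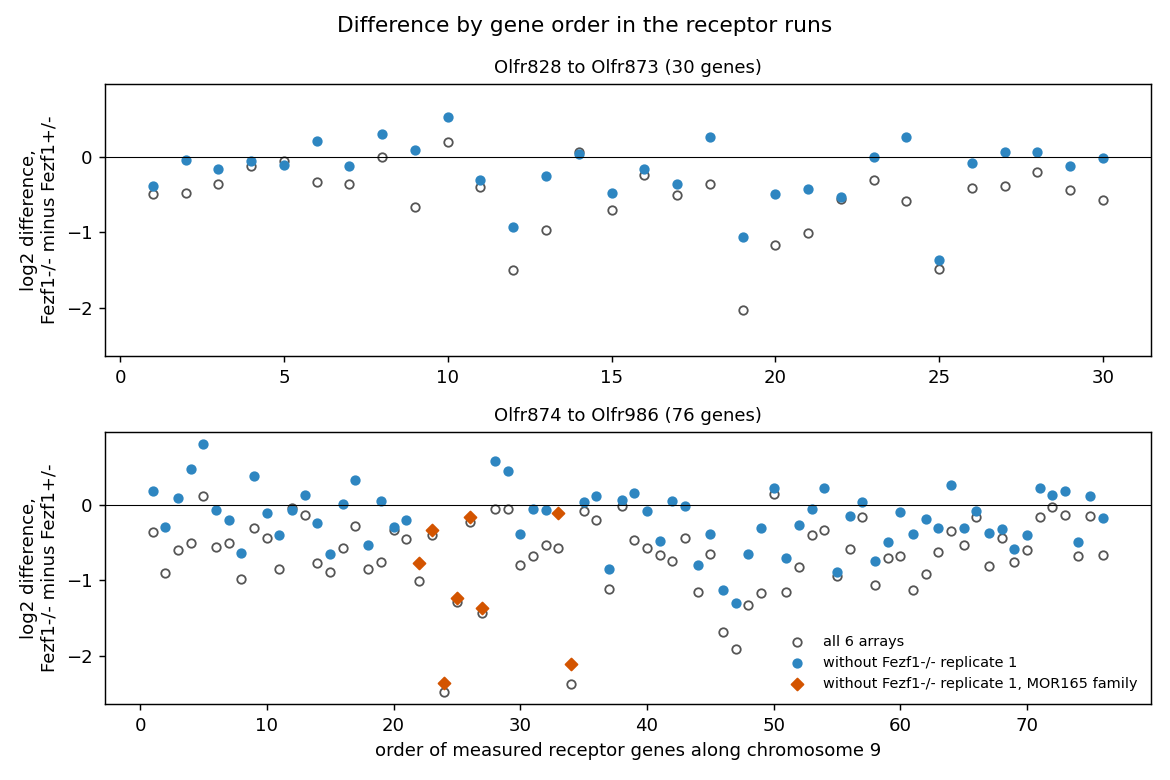
Log2 difference, Fezf1-/- minus Fezf1+/- (y axis), of each of the 106 receptors in its order along chromosome 9 (x axis, rank among the 30 of the upper and the 76 of the lower panel), with all 6 arrays (open circles) and without Fezf1-/- replicate 1 (filled). Diamonds are the 8 MOR165 receptors, of which Olfr910 at -2.37 and Olfr921 at -2.11 are the lowest filled points, and most other filled points lie within 0.5 of 0.

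Outside MOR165, Olfr868 fell in both fits. This MOR145 receptor stood at 3.86, 4.26 and 4.22 on the Fezf1-/- arrays, against 5.57, 5.40 and 5.84 on the Fezf1+/- arrays. No Fezf1-/- value came within 1 log2 unit of a Fezf1+/- value, and the difference was -1.49 (SE 0.16, limma adjusted p = 0.0248, n = 3 each) with all 6 arrays and -1.36 (SE 0.14, adjusted p = 0.00559) without Fezf1-/- replicate 1. All 3 Fezf1-/- values lay below the lower quartile of all probe sets, near background, so the background estimate sets part of their size here too and no fold is given. The other 4 MOR145 receptors had differences between -0.57 and -0.31 with all 6 arrays and between -0.12 and -0.01 without that replicate, and 0 of them were called. Olfr868 is thus the one member of its family that was called. Neither Olfr868 nor Olfr921 stayed under the threshold after any other single array was left out, with limma adjusted p-values of 0.0770 to 0.128 for Olfr868 and 0.0842 to 0.178 for Olfr921 when it was Fezf1-/- replicate 2 or 3 or any Fezf1+/- replicate.

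In 4 further receptors a fall was called in the fit without Fezf1-/- replicate 1 and not with all 6 arrays. Olfr944 and Olfr943 are neighbours of family MOR171. Olfr944 stood at 4.56, 6.25 and 6.46 on the Fezf1-/- arrays, against 7.35, 7.52 and 8.11 on the Fezf1+/- arrays. Olfr943 stood at 4.27, 5.84 and 6.09 on the Fezf1-/- arrays, against 7.09, 6.85 and 7.33 on the Fezf1+/- arrays. On both, Fezf1-/- replicate 1 lay more than 1 log2 unit below the other mutant arrays, which widened the spread. Without it Olfr944 fell by 1.31 (SE 0.22, limma adjusted p = 0.0348) and Olfr943 by 1.12 (SE 0.16, adjusted p = 0.0203), and with all 6 arrays their adjusted p-values were 0.318 and 0.337. MOR171 is the largest family of the set, with 25 measured members and a median of -0.30 without Fezf1-/- replicate 1.

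Olfr857, of family MOR146, showed this spread most clearly. It stood at 4.37, 7.30 and 7.24 on the Fezf1-/- arrays, against 8.24, 8.17 and 8.57 on the Fezf1+/- arrays. The pair of Fezf1-/- replicates 2 and 3 lay about 1 log2 unit below the control arrays, with Olfr857 falling by 1.06 in those 5 arrays (SE 0.14, limma adjusted p = 0.0140), while with all 6 arrays its difference was -2.03 (SE 0.80, adjusted p = 0.513). Olfr887, of family MOR162, stood at 4.84, 5.95 and 5.80 on the Fezf1-/- arrays, against 6.49, 6.58 and 6.46 on the Fezf1+/- arrays. It fell by 0.64 without Fezf1-/- replicate 1 (SE 0.10, adjusted p = 0.0248), the smallest of the 7 called differences.

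**Figure D3:**
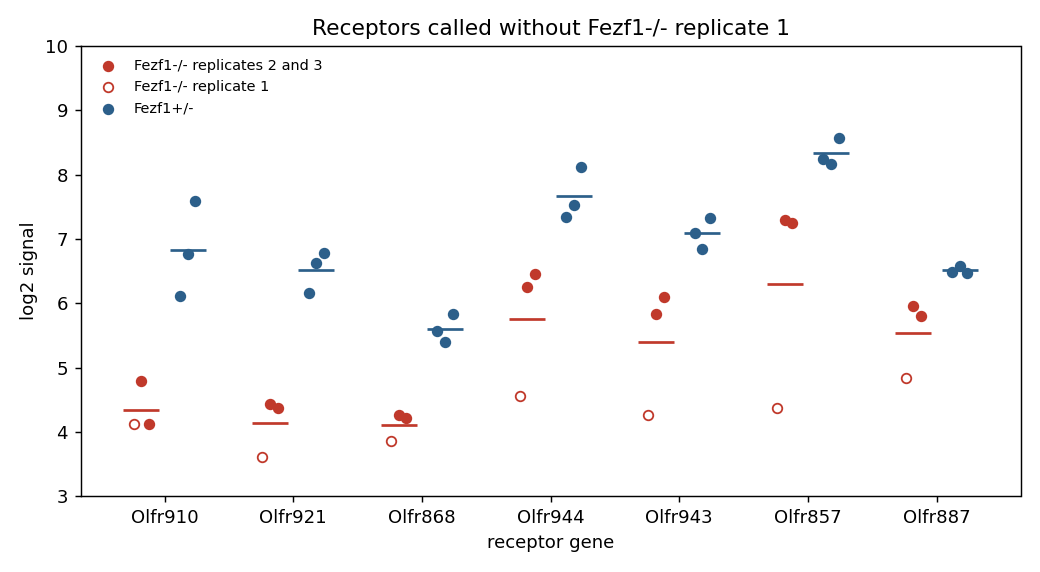
Log2 signal on every array (y axis) of the 7 receptors that fell without Fezf1-/- replicate 1 (x axis), with Fezf1-/- arrays in red, replicate 1 as an open circle, and Fezf1+/- arrays in blue; lines are means over 3 arrays. In Olfr910, Olfr921 and Olfr868 replicate 1 lies within 1 log2 unit of the other Fezf1-/- arrays, while in Olfr857 it is at 4.37 against 7.30 and 7.24.

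Receptors with a high signal were found on both sides of 0. Of the 12 with the highest Fezf1+/- mean, all 12 had a negative difference with all 6 arrays, and without Fezf1-/- replicate 1 the difference was negative in 8 and positive in 4, with a median of -0.38. On the negative side of these were Olfr857 and Olfr944, described above, Olfr847 (-0.93, SE 0.30, limma adjusted p = 0.205), Olfr945 (-0.65), Olfr859 (-0.49) and Olfr917 (-0.38). The receptors described next were ranked by the mean over all 6 arrays, which includes the Fezf1-/- values and so favours receptors that were not lower. Olfr972, the highest of the set, stood at 7.39, 9.06 and 9.38 on the Fezf1-/- arrays, against 8.73, 8.97 and 9.19 on the Fezf1+/- arrays. Its difference was -0.35 with all 6 arrays and 0.26 without Fezf1-/- replicate 1, with a 95% interval from -0.14 to 0.65 that leaves out a halving. Olfr867 stood at 5.98, 8.32 and 8.70 on the Fezf1-/- arrays, against 7.91, 8.20 and 8.66 on the Fezf1+/- arrays, and without that replicate its interval ran from -0.29 to 0.81. Olfr968 stood at 6.60, 8.37 and 8.36 on the Fezf1-/- arrays, against 8.19, 8.38 and 8.80 on the Fezf1+/- arrays (difference -0.09 without Fezf1-/- replicate 1). In these 3 receptors Fezf1-/- replicate 1 alone lay below every control array by more than 1 log2 unit.

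Among the other receptors ranked that way, Olfr877 had a difference of 0.48 and Olfr898 of 0.00 without Fezf1-/- replicate 1, and Olfr969, at 5.58, 7.62 and 7.97 on the Fezf1-/- arrays and 7.84, 8.15 and 8.57 on the Fezf1+/- arrays, had one of -0.39 (SE 0.22, limma adjusted p = 0.444). Across the 106 receptors, the mean signal in Fezf1+/- cells and the difference correlated at a Pearson r of -0.41 with all 6 arrays and -0.04 without Fezf1-/- replicate 1 (Spearman -0.43 and 0.02). These are descriptions across genes that share the same arrays and whose control values enter both axes.

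**Figure D4:**
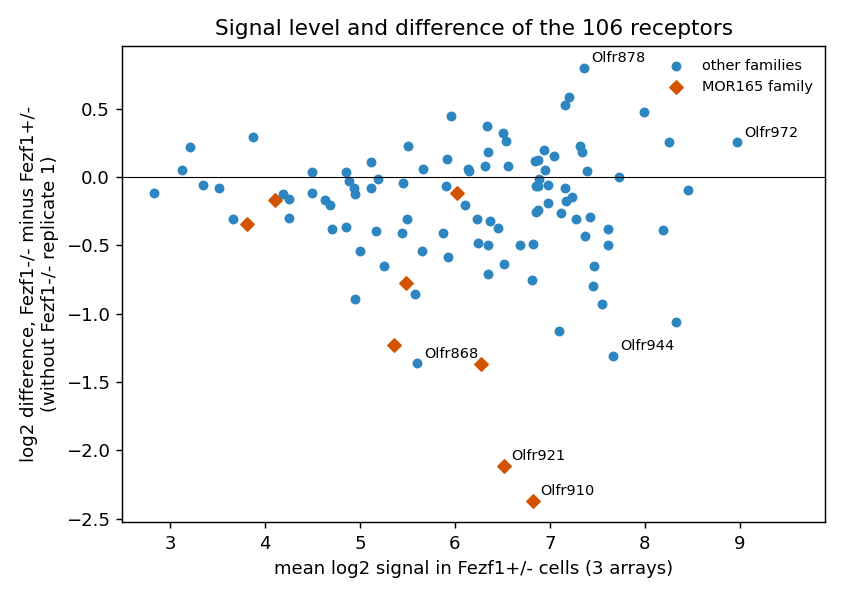
Mean log2 signal in Fezf1+/- cells (x axis, 3 arrays) against the log2 difference without Fezf1-/- replicate 1 (y axis) for the 106 receptors, with the 8 MOR165 receptors as diamonds. Olfr972, the highest receptor, has a difference of 0.26, and Olfr910 and Olfr921 lie lowest at medium signal.

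On the scale of the deposited values, positive differences were few. With all 6 arrays 4 of the 106 were positive, Olfr845 (0.19, SE 0.38), Olfr952 (0.14, SE 0.11), Olfr878 (0.12, SE 0.66) and Olfr850 (0.06, SE 0.20), and the next in order, Olfr837, was at 0.00. None of them passed by limma (adjusted p from 0.719 to 0.999). Olfr952 lay below the lower quartile of all probe sets (4.30 to 4.44) on all 6 arrays. Olfr850, at 4.18 to 4.89, and Olfr837, at 3.28 to 4.79, lay near or below it, so differences of receptors this close to background say little. Olfr878 stood at 6.11, 7.84 and 8.48 on the Fezf1-/- arrays, against 6.82, 7.14 and 8.12 on the Fezf1+/- arrays, so the groups overlapped widely. Its difference without Fezf1-/- replicate 1, 0.80 (SE 0.39, adjusted p = 0.368), was the highest of the set.

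The eugenol receptors Olfr958 and Olfr961 were looked at because an odorant is known for them. Olfr958 stood at 5.78, 6.81 and 6.80 on the Fezf1-/- arrays, against 6.70, 7.003 and 6.91 on the Fezf1+/- arrays. Its difference of -0.40 (SE 0.30, limma adjusted p = 0.710) became -0.06 without Fezf1-/- replicate 1, with a 95% interval from -0.34 to 0.21. Olfr961 stood at 5.79, 6.72 and 7.45 on the Fezf1-/- arrays, against 6.69, 7.05 and 7.96 on the Fezf1+/- arrays, and its difference without that replicate, -0.15, had a wide interval from -1.07 to 0.77. Neither receptor was called in either fit, and of the 2 intervals without Fezf1-/- replicate 1 that of Olfr961 reached a halving.

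Seen by family, MOR165 had the lowest median of the 10 families with at least 4 measured members. With all 6 arrays its median was -1.15, and MOR146 was close to it at -1.09, with all 4 of its members negative. Without Fezf1-/- replicate 1, the family medians were -0.52 for MOR146 (4 members), -0.32 for MOR223 (5), -0.30 for MOR171 (25) and -0.11 for MOR224 (8). The medians of MOR145, MOR162, MOR167 and MOR170 lay between -0.09 and -0.08, and that of MOR161, a family of 5 that includes Olfr877, was 0.08. Without that replicate, families other than MOR165 thus lay within about 0.5 log2 units of 0. The 10 families were set side by side after their values were known, so no test is given.

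The members form 2 runs of neighbouring receptors on chromosome 9, where a run ends when more than 3 other genes intervene. The run from Olfr24 to Olfr18 holds 30 members, of which 1 fell with all 6 arrays (3.33%) and 2 without Fezf1-/- replicate 1 (6.67%). The run from Olfr160 to Olfr986 holds 76, of which 1 fell with all 6 arrays (1.32%) and 5 without that replicate (6.58%). Among all genes, the shares called lower were 0.456% with all 6 arrays and 1.67% without that replicate. The medians were -0.43 and -0.12 in the run of 30, against -0.59 and -0.18 in the run of 76. A further 22 measured receptors of these runs are not members, among them the pseudogenes Olfr856-ps1, Olfr911-ps1 and Olfr947-ps1, whose symbols are not Olfr and a number alone. None of these 22 was called by limma in either fit, and their medians were -0.64 and -0.30. With all 6 arrays 3 of the 22 stood lower at an unadjusted p under 0.05 (13.6%, against 5.25% of all genes). Olfr151, the M71 receptor used widely in studies of receptor choice, stood at 4.17, 5.02 and 6.41 on the Fezf1-/- arrays, against 6.39, 6.04 and 6.93 on the Fezf1+/- arrays (difference -1.25, SE 0.58, adjusted p = 0.563).

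Other groups of receptors are given for comparison. Of the 109 class I receptors, Olfr543 to Olfr693, 2 fell with all 6 arrays (1.83%) and 19 without Fezf1-/- replicate 1 (17.4%), with medians of -1.04 and -0.80. Of the 47 receptors numbered Olfr763 to Olfr827 on chromosome 10, 5 fell with all 6 arrays (10.6%) and 11 without Fezf1-/- replicate 1 (23.4%), with medians of -0.79 and -0.64. Of the 223 numbered Olfr1006 to Olfr1318 on chromosome 2, 25 fell with all 6 arrays (11.2%) and 55 without that replicate (24.7%), with medians of -0.82 and -0.56. The corresponding shares called lower were 1.89% and 6.6% for the chromosome 9 receptors, and 0.456% and 1.67% for all genes. The share of positive differences without Fezf1-/- replicate 1 was 31.1% for chromosome 9, against 9.17% for class I, 27.7% for chromosome 10 and 20.6% for chromosome 2. Among all genes that share was 55.3%. The differences between these groups were not tested.

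The signal of the members was spread over the lower and middle range of the array. Their Fezf1+/- means ran from 2.83 to 8.96 with a median of 6.34, and 28 of the 106 were above 7. On every Fezf1+/- array 51 members stood above the median of all probe sets, and 8 stood below the lower quartile on all 6 arrays. The SE of a member's difference had a median of 0.40 with all 6 arrays and 0.25 without Fezf1-/- replicate 1, against 0.14 and 0.11 over all genes. Receptor differences were therefore measured less precisely than those of a typical gene, and 29 members had an SD over 1 among the Fezf1-/- arrays.

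The genes through which these receptors signal had negative differences, none of them called with all 6 arrays. In the list of 15 transduction genes, which holds the olfactory G protein, adenylyl cyclase and cyclic nucleotide-gated channel, 0 of 15 were called by limma with all 6 arrays and 11 stood lower at an unadjusted p under 0.05 (73.3%, against 5.25% of all genes), with a median of -1.14. Slc24a4, the exchanger that extrudes calcium from cilia, stood at 6.72, 6.38 and 6.64 on the Fezf1-/- arrays, against 7.54, 7.51 and 7.91 on the Fezf1+/- arrays, a difference of -1.07 (SE 0.15, adjusted p = 0.0635). Pde1c, a ciliary phosphodiesterase, differed by -0.97 (SE 0.15, adjusted p = 0.0694). The list's median without Fezf1-/- replicate 1 was -0.78, and 4 of 15 fell (26.7%, against 1.67% of all genes), Slc24a4, Pde1c, Adcy3, the adenylyl cyclase, and Omp. All but 5 genes of this list also serve as mature neuron markers above.

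The other lists held genes for receptor trafficking and receptor choice. Of 6 trafficking genes 0 were called by limma in either fit. With all 6 arrays 2 stood lower at an unadjusted p under 0.05 (33.3%, against 5.25% of all genes), Reep1 (difference -0.37, adjusted p = 0.335) and Ric8b (-1.01, adjusted p = 0.379). Rtp1 and Rtp2, which carry receptors to the surface, are in this list. Of 21 genes for receptor choice and transcription, among them Lhx2, Ldb1, the Ebf genes and the histone demethylase Kdm1a, 0 were called with all 6 arrays and the median was -0.15. The lowest p-values among them belonged to Rcor1, a partner of Kdm1a (difference -0.71, adjusted p = 0.459), and Ebf4 (-0.82, adjusted p = 0.460). Without Fezf1-/- replicate 1 the median was -0.05 and 1 gene, Nfix, fell by 0.72 (SE 0.13, adjusted p = 0.0416).

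The genes beside the receptor runs were compared to see whether the surrounding stretches moved. Of 20 flanking genes that are not odorant receptors, 0 were called by limma with all 6 arrays, 3 stood lower and 1 higher with an unadjusted p below 0.05, against 5.25% and 4.23% of all genes, and the median was -0.02. Clmp, which encodes an adhesion molecule of epithelial junctions, stood at 8.15, 8.47 and 8.51 on the Fezf1-/- arrays, against 7.67, 7.23 and 7.88 on the Fezf1+/- arrays (difference 0.78, adjusted p = 0.266). Spa17, a sperm surface protein gene, differed by -0.88 (SE 0.29, adjusted p = 0.412). Without Fezf1-/- replicate 1, 1 of 20 fell (5%, against 1.67% of all genes), the mucin gene Muc16 (-0.76, adjusted p = 0.0424), and 0 rose. The flanking genes thus centred near 0 in both fits.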

How the data were processed

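The values are log2 signals per probe set, deposited for 3 Fezf1-/- and 3 Fezf1+/- arrays. Per the submitters' processing notes, the authors used Affymetrix Expression Console and GCRMA. Program versions, order of use and filters are not given in the sources used here, and the log2 base was taken from the range, 2.139 to 14.51. Each array had 100 ng of total RNA, per the labels' protocols.

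Of 35557 probe sets, 21789 had 1 symbol in the 2016 platform annotation, 1621 several and 12147 none. Symbols were updated through Entrez IDs where RefSeq matched (21698), and 106 of 106 receptors matched. The probe set of highest mean stood for a gene, leaving 19938 genes; each receptor had 1. The genotype difference was fitted over all genes by limma 3.58.1 (R 4.3.3) with Benjamini-Hochberg adjustment, after the script was tested on simulated data. An exact permutation test of 3 against 3 arrays cannot go below p = 0.1, so none was run. The number of arrays limits the precision. GCRMA values near background say little about level, and probe sets of similar receptors may share signal.

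The members, lists and tests were chosen with earlier results of these data known. The rule for named genes took called receptors, the 8 highest, the 5 with the most positive differences, those called without Fezf1-/- replicate 1, the 3 eugenol receptors and, in each other list, called genes or the 2 with the lowest p-values; others are named after their values were seen. Gene order, MOR family names and sequences come from RefSeq on GRCm38.p6. Promoter windows were found for 92 of 106 receptors and compared by global alignment. Alternatives were other normalizations, a filter on low values, the mean of a gene's probe sets, other variance models, a block on replicate number, and leaving out 1 array at a time.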

Additional observations from a re-analysis of the deposited data

How the results depend on the processing

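Quantile normalization, centring on each array's median, the mean of a gene's probe sets and a trended robust variance each left the same 2 receptors called lower and 0 higher. The number lower was 7 with array weights, 1 with the replicate number as a block (Olfr921, with Olfr868 at an adjusted p of 0.0762), 0 with an unmoderated test and 0 when only genes above the median mean were tested, which kept 38 of the 106. That filter removed Olfr868 and Olfr921 themselves, so neither could be called under it. Leaving out 1 array gave 0 to 7 lower, and neither Olfr868 nor Olfr921 was called after leaving out any single array except Fezf1-/- replicate 1. In the 15 alternatives that test them, Olfr868 was called in 6 (adjusted p from 0.00215 to 0.769) and Olfr921 in 9 (0.0011 to 0.246). At an unadjusted p under 0.05 the number lower was 40 under the block, 4 under the filter, 2 and 3 with centring on mature neuron markers and on the other receptors, and 11 to 30 when leaving out 1 array. Those 2 centrings shift every gene by construction. They gave 42 and 20 receptors higher, median differences of 0.80 and 0.43, and 18430 and 14567 genes called of 19938, with 22 and 11 of 41 pathway genes and 18 and 11 of 20 flanking genes called. Under the first, Olfr972 was at 1.00, Olfr837 at 1.36, Olfr913 at 1.13, Olfr958 at 0.95 and Reep1 at 0.99, and under the second Olfr837 was at 0.98. The count over all genes, 110, became 24 under the filter, 740 with array weights, 8 unmoderated and 40 to 531 without 1 array. Of the other receptors 7, 248, 5 and 33 to 181 were lower in the same order. Array weights called 6 pathway and 2 flanking genes, and leaving out 1 array 0 to 5 and 0 to 1. The median difference ran from -0.81 to -0.15 when leaving out 1 array, the value closest to 0 being that without Fezf1-/- replicate 1. Deviations of arrays with the same replicate number correlated at 0.23, -0.33 and 0.54, so the numbers were not taken to pair the samples. Except where the construction shows it, the cause was not tested.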

Other observations

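Another 6 probe sets carry several symbols that include receptors of this number range, and they stood outside the comparisons. All 6 had negative differences with all 6 arrays, from -1.33 for the probe set of Olfr951 and Olfr954 to -0.40 for that of Olfr938, Olfr952 and Olfr955. Without Fezf1-/- replicate 1 they ran from -0.67 to 0.22, with the same probe sets at the ends. The probe set of Olfr951 and Olfr954 stood at 5.80, 7.79 and 7.81 on the Fezf1-/- arrays, against 7.98, 8.64 and 8.78 on the Fezf1+/- arrays. Every Fezf1-/- array lay below every Fezf1+/- array there, while the other 5 overlapped once Fezf1-/- replicate 1 was set aside. The probe set shared by Olfr150 and Olfr919 was high in both groups, at 6.40, 8.42 and 8.73 on the Fezf1-/- arrays and 8.52, 8.51 and 8.65 on the Fezf1+/- arrays.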
